A study of Sus scrofa with 8 samples.

Results

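The heat shock genes examined were the cytosolic chaperone genes *HSPA8*, *HSP90AA1*, *HSP90AB1* and *HSPH1*, the co-chaperone genes *DNAJB1* and *BAG3*, the small heat shock protein gene *HSPB1*, the mitochondrial chaperonin genes *HSPD1* and *HSPE1*, and the transcription factor gene *HSF1*. They were chosen by symbol, with earlier results of these data known. Of these 10 genes, 9 had a row among the 21607 mRNA identifiers, while *HSPB1* had none under its identifier and was not analysed here. All 9 passed the filter on low values, which asked for some reads in at least 2 libraries. The livers came from 4 healthy female domestic pigs of the Yanan breed (Yana in the abstract of the paper). Of these sows, 2 were young (180 days) and 2 were old (8 years), and each liver gave 1 directional RNA-seq library from RNA depleted of rRNA. No treatment or engineered allele is named for any sow, and all were kept off feed overnight, rested after transport and were stunned electrically before slaughter. Old against young is the only comparison of the design. Each animal is 1 sample of 1 age, so age cannot be told apart from any other difference between these sows, such as rearing year or day of slaughter, which the labels do not give. Birth history is such a difference: the paper states that the young sows had never given birth. The old sows had done so over many years and were culled as their production was depleted.

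Heat shock proteins are molecular chaperones, which bind unfolded proteins and help them to fold, to assemble or to be degraded. In unstressed cells the transcription factor HSF1 is held inactive by chaperones, and unfolded proteins that occupy these chaperones release it to switch on heat shock genes. The liver makes and secretes large amounts of plasma protein, and its hepatocytes, the main cell type of the organ, carry many mitochondria whose imported proteins need the chaperonin for folding.

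Values are CPM, read counts scaled to a library size, which the sources used here do not give, and they are not divided by gene length, so levels are compared here between livers and never between genes. Reads on listed mRNAs and lncRNAs came to 51.5 M and 52.2 M in young livers against 28.3 M and 31.6 M in the old livers. Every member rested on at least 48 reads in each library. Hepatocyte markers such as albumin and the apolipoproteins summed to between 37193 and 62235 CPM per library over the 12 of 15 with a row. Across mRNAs the log2 values of any pair of libraries correlated with a Pearson coefficient of 0.894 to 0.947, while on unlogged CPM old replicate 1 stood apart, at 0.798 to 0.846 with the others against 0.965 to 0.988 among the rest. TMM scaling, which sets libraries to a common level from the bulk of genes, moved the median log2 fold change of mRNAs with a mean of at least 1 CPM by 0.14 towards higher in old livers. It is named below wherever it turned the direction of a heat shock gene examined here.

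No heat shock gene was called as different between old and young livers. The smallest adjusted p of any mRNA in the limma fit was 0.213, so that fit could call no gene. limma on log2(CPM + 1) called 0 of the 9, with adjusted p-values from 0.223 to 0.980, and the same fit called 0 of 16898 mRNAs (0%) at an adjusted p under 0.05 and an absolute log2 fold change above 1. edgeR's exact test on the recovered reads, the kind of test the study used, called 534 mRNAs (3.16%), none of them a heat shock gene of the 9, with a smallest adjusted p among them of 0.323. DESeq2 called 880 mRNAs and edgeR's quasi-likelihood test 0 (2474 at an unadjusted p under 0.05), and neither called any of the 9. At an unadjusted limma p under 0.05 there were 2 of the 9, *HSPD1* and *HSPE1*, both lower in old livers, against 8.93% of all mRNAs lower and 6.78% higher at that level. The median log2 fold change of the 9 genes was 0.04, beside -0.15 over all 9790 mRNAs with a mean of at least 1 CPM, and 0.23 beside -0.01 with TMM scaling. P-values measure the spread between 2 sows per age.

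**Figure D1:**
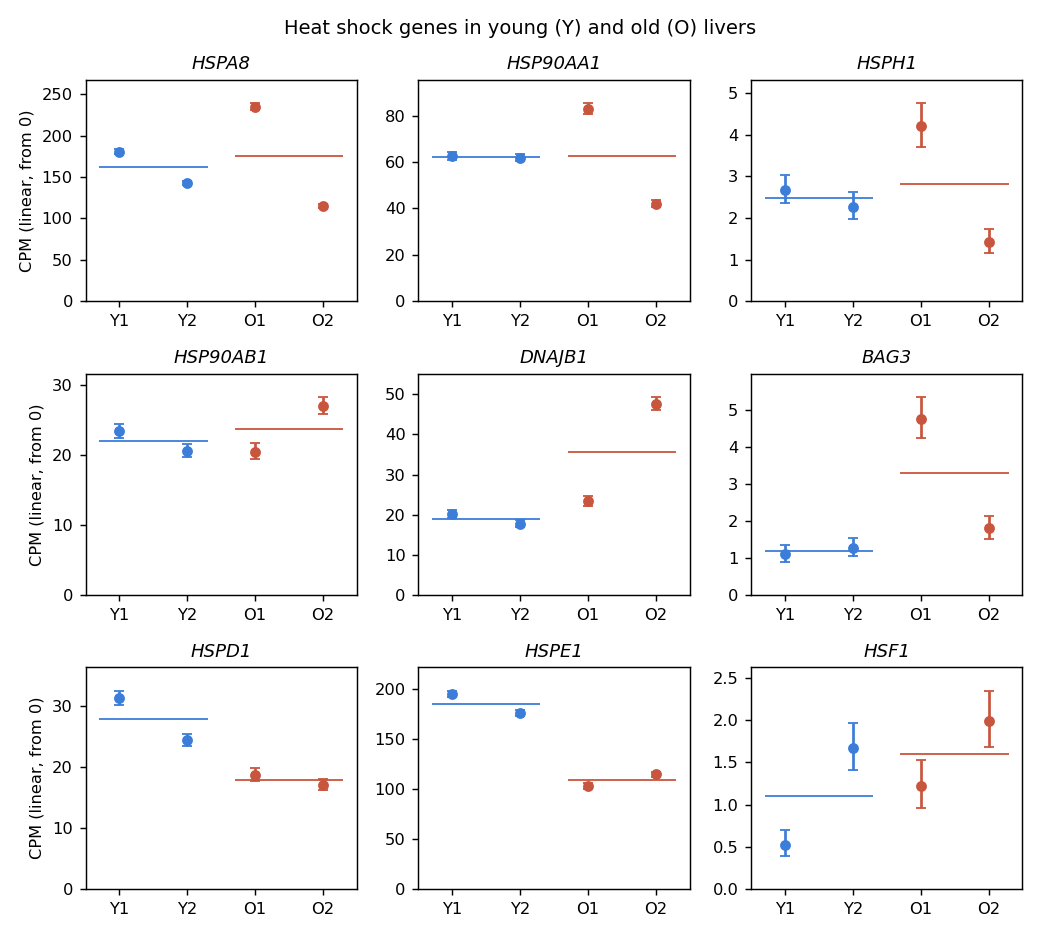
CPM on a linear axis from 0 for each of the 9 heat shock genes in young replicates 1 and 2 (Y1 and Y2, blue) and old replicates 1 and 2 (O1 and O2, red), with horizontal lines at the mean of each age and error bars giving exact 95% Poisson intervals, which cover counting error only. The old livers lie on both sides of the young livers for *HSPA8*, *HSP90AA1*, *HSPH1* and, the other way round, *HSP90AB1*, above both for *DNAJB1* and *BAG3*, and below both for *HSPD1* and *HSPE1*.

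*HSPA8*, the constitutive cytosolic HSP70 that folds new proteins and uncoats clathrin vesicles, was at 181 and 143 CPM in young livers against 235 and 115 CPM in the old livers. Old replicate 1 was the highest library and old replicate 2 the lowest, with the young livers between them. Its mean was 162 ± 26.7 CPM in young and 175 ± 84.6 CPM in old livers (SD, n = 2 each), and its log2 fold change was 0.04 ± 0.43 (SE), with an adjusted p of 0.979 in limma. The old livers differed from each other by 2.04-fold, against 1.26-fold between the young livers.

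*HSP90AA1*, the HSP90 form that stress induces, measured 62.6 and 61.9 CPM in young livers and 82.9 and 42.1 CPM in old livers. The young pair was nearly equal while the old pair lay 1.97-fold apart, again with old replicate 1 above and old replicate 2 below both young livers. The age means were 62.3 ± 0.497 and 62.5 ± 28.8 CPM (SD, n = 2 each), and the log2 fold change of -0.07 ± 0.39 (SE) had an adjusted p of 0.952 in limma and turned to 0.12 with TMM scaling.

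*HSPH1*, an HSP110 protein that exchanges the nucleotide of HSP70, had 2.68 and 2.28 CPM in young livers and 4.21 and 1.43 CPM in old livers. This was the widest gap within the old pair among the 9 genes as a ratio, 2.94-fold, on 259 and 103 reads. Its log2 fold change was 0.04 ± 0.45 (SE), with an adjusted p of 0.980 in limma.

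*HSPA8*, *HSP90AA1* and *HSPH1* thus shared 1 order of the libraries, old replicate 1 over young replicate 1 over young replicate 2 over old replicate 2. That order was held by 3 of the 9 heat shock genes and by 3.98% of the 9790 mRNAs with a mean of at least 1 CPM, and old replicate 1 above with old replicate 2 below both young livers by 6.85%. For each of the 3, leaving out an old liver set the sign of the age difference: without old replicate 1 the log2 fold changes were -0.47, -0.55 and -0.51 for *HSPA8*, *HSP90AA1* and *HSPH1*, and without old replicate 2 they were 0.55, 0.41 and 0.59. The grouping of these genes was seen in the values and has no test.

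*HSP90AB1*, the constitutive HSP90 form, ran differently from *HSP90AA1*. It stood at 23.4 and 20.6 CPM in young livers against 20.5 and 27.0 CPM in old livers, so that old replicate 2 was the highest library and old replicate 1 the lowest by a narrow margin. A position with old replicate 1 below and old replicate 2 above both young livers occurred in 5.85% of the 9790 mRNAs, and with TMM scaling both old livers were above both young livers. The log2 fold change was 0.10 ± 0.20 (SE), with an adjusted p of 0.865 in limma.

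**Figure D2:**
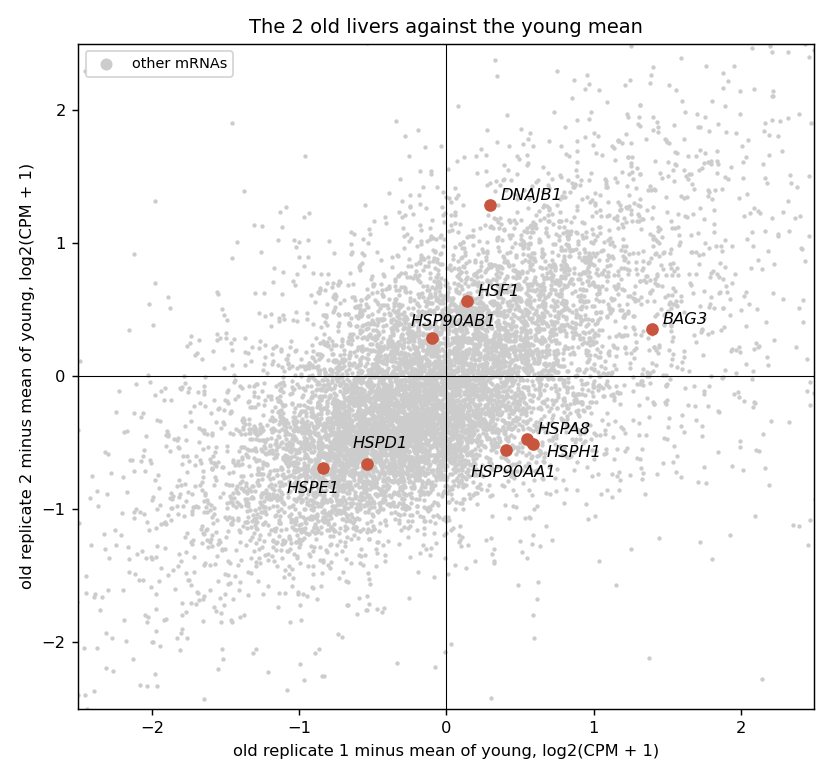
Difference of old replicate 1 (x axis) and old replicate 2 (y axis) from the mean of the young livers, in log2(CPM + 1), for the 9 heat shock genes (red, named) and the other mRNAs with a mean of at least 1 CPM (grey; some lie beyond the axes). *HSPA8*, *HSP90AA1* and *HSPH1* lie close together at the lower right, where old replicate 1 is higher and old replicate 2 lower, while *HSPD1* and *HSPE1* lie at the lower left and *BAG3* and *DNAJB1* at the upper right.

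*DNAJB1* and *BAG3*, both cofactors of HSP70, had both old livers above both young livers. *DNAJB1*, an HSP40 that hands unfolded proteins to HSP70 and sets off its ATPase, was at 20.1 and 17.8 CPM in young livers and 23.4 and 47.6 CPM in old livers. Old replicate 1 was only just above the young livers and old replicate 2 was 2.03-fold above old replicate 1. The ratio of age means was 1.87, and the log2 fold change of 0.79 ± 0.41 (SE) had an adjusted p of 0.467 in limma and 0.457 in edgeR's exact test.

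*BAG3*, which links HSP70 to small heat shock proteins and to autophagy of protein aggregates, was at 1.11 and 1.28 CPM in young livers and 4.78 and 1.81 CPM in old livers. Here old replicate 1 was the high library, 2.64-fold above old replicate 2. The exact 95% Poisson interval of old replicate 2 ran from 1.51 to 2.15 CPM and that of young replicate 2 from 1.05 to 1.54 CPM, so the nearest old and young livers overlapped in counting error. The ratio of age means was 2.75, and the log2 fold change of 0.88 ± 0.42 (SE) had an adjusted p of 0.441 in limma and 0.323 in edgeR's exact test.

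Both old livers above both young livers was the pattern of 2 of the 9 genes and of 17.8% of the 9790 mRNAs with a mean of at least 1 CPM, a share that was 23.4% with TMM scaling, where *HSP90AB1* made it 3 of 9. Each difference leaned on 1 old liver: without old replicate 2 the log2 fold change of *DNAJB1* was 0.29, and without old replicate 1 that of *BAG3* was 0.36. Immediate early genes, which code for transcription factors and feedback proteins made within minutes of a stimulus and which also respond to handling of tissue, are given beside these values. edgeR's exact test called 4 of the 11 tested, *FOS*, *JUNB*, *IER2* and *DUSP1*, all higher in old livers, beside 3.16% of all mRNAs, and limma called 0 (4 at an unadjusted p under 0.05). Their values summed to 19.1 and 15.5 CPM in young livers against 112 and 345 CPM in the old livers over the 12 of 18 with a row, with 8 of those 11 above both young livers in both old livers beside 24.4% of the mRNAs tested, *EGR1*, *EGR2* and *IER3* interleaved, and *ZFP36* listed at 0 in all libraries. *FOS*, a subunit of the AP-1 transcription factor, was at 1.17 and 1.49 CPM in young livers and 9.95 and 206 CPM in old livers. *IER2*, another of these genes, was at 3.52 and 2.69 CPM in young livers and 18.2 and 28.8 CPM in old livers. The part of sampling or handling of the livers in the values of heat shock genes was not tested.

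*HSPD1* and *HSPE1* had both old livers below both young livers, and they had the smallest adjusted p-values of the 9 genes in limma. HSPD1, also called HSP60, forms the folding chamber of the mitochondrial matrix, and HSPE1, also called HSP10, is the lid that closes it. In the order of the RefSeq pig table of the Sscrofa11.1 assembly, the genes are next to each other on chromosome 15. *HSPD1* measured 31.2 and 24.3 CPM in young livers and 18.7 and 17.1 CPM in old livers. Its mean was 35.6% lower in old livers, 17.9 ± 1.14 against 27.8 ± 4.86 CPM (SD, n = 2 each), and its log2 fold change of -0.60 ± 0.18 (SE) had an adjusted p of 0.291 in limma.

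*HSPE1* measured 196 and 176 CPM in young livers and 103 and 115 CPM in old livers, on 6350 reads or more in each. Its mean was 41.3% lower in old livers, 109 ± 8.33 against 186 ± 13.7 CPM (SD, n = 2 each). The log2 fold change of -0.76 ± 0.14 (SE) had an adjusted p of 0.223 in limma, the smallest of the 9 genes, and 0.811 in edgeR's exact test. With 1 library left out, log2 fold changes ran from -0.84 to -0.69 for *HSPE1* and from -0.77 to -0.43 for *HSPD1*. Since the age groups of these genes did not overlap, leaving out a library could not turn the sign.

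Both old livers below both young livers was common in this table, however, at 32.9% of the 9790 mRNAs with a mean of at least 1 CPM against 2 of the 9 heat shock genes. With TMM scaling that share was 24.7%, and the log2 fold changes of *HSPE1* and *HSPD1* were -0.57 and -0.42. The summed hepatocyte markers were 53028 and 62235 CPM in young livers and 37193 and 47141 CPM in old livers. Of the 12 hepatocyte markers, 4 had both old livers below and 0 had both above. Old replicate 1 lay under the young pair for 9 of them and over it for 2, while old replicate 2 did so for 6 and 3. The median log2 fold change of these markers was -0.63, beside -0.15 over the 9790 mRNAs. With TMM scaling these medians were -0.44 and -0.01. On the log2(CPM + 1) scale the median marker was at 10.5 and 11.2 in young livers against 10.5 and 10.8 in the old livers. The summed macrophage markers were 233 and 254 CPM in young and 343 and 376 CPM in old livers. Of the 6 markers, 4 were above in both old livers, beside 17.8% of the 9790 mRNAs with a mean of at least 1 CPM. Of 5 T and NK cell markers, 4 were above in both old livers and 0 below. Of 7 stellate cell and fibroblast markers, 0 were above and 0 below in both old livers. Those markers summed to 19.4 and 38.5 CPM in young livers against 14.7 and 50.7 CPM in the old livers. Values of other cell types are not given here. In whole tissue, fewer cells of a type and less RNA per cell cannot be told apart, and the part of cell make-up in the values of *HSPD1* and *HSPE1* was not tested.

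*HSF1*, the transcription factor that switches on the heat shock genes, was read at 0.523 and 1.68 CPM in young livers and 1.22 and 1.99 CPM in old livers. The age groups overlapped, and the young livers were 3.20-fold apart, with exact 95% Poisson intervals of 0.385 to 0.693 and 1.41 to 1.97 CPM on 48 and 145 reads. The log2 fold change was 0.35 ± 0.38 (SE), with an adjusted p of 0.719 in limma, and it was -0.054 without young replicate 1.

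**Figure D3:**
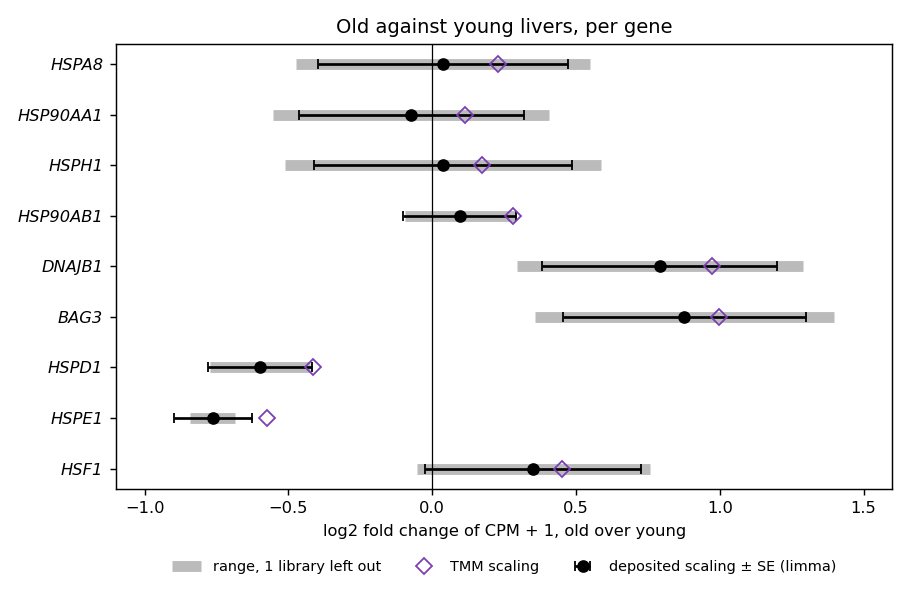
Log2 fold change of CPM + 1, old over young livers, for each of the 9 heat shock genes: black points with bars are the limma estimate ± SE on the deposited scaling, open diamonds are the estimate with TMM scaling, and grey bars span the estimates with 1 library left out. The grey bars of *DNAJB1*, *BAG3*, *HSPD1* and *HSPE1* stay on 1 side of 0, while those of the other 5 genes cross it. For the former the age groups do not overlap, so their grey bars could not cross 0.

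Differences within an age group were compared next, since they decide what an age difference is set against. The median absolute difference in log2(CPM + 1) within the old pair was 0.96 over the 9 heat shock genes and 0.40 over the 9790 mRNAs with a mean of at least 1 CPM. Within the young pair it was 0.17 over the heat shock genes and 0.34 over all of them. The old pair was thus further apart than the young pair for 7 of the 9 genes, the exceptions being *HSPD1* and *HSF1*, and for 53.6% of the mRNAs. The direction was not common to the 9: old replicate 1 was the higher old liver for *HSPA8*, *HSP90AA1*, *HSPH1*, *BAG3* and *HSPD1*, and the lower one for *DNAJB1*, *HSP90AB1*, *HSPE1* and *HSF1*. Replicates of an age are different sows with no order, so these are descriptions of 4 livers.

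**Figure D4:**
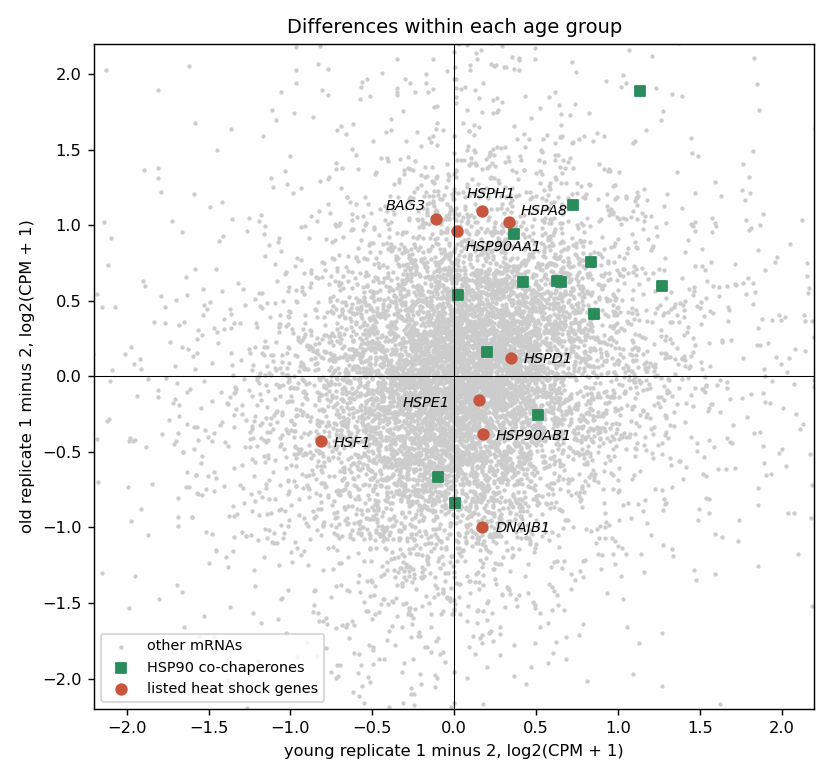
Difference in log2(CPM + 1) between replicates 1 and 2 of the young livers (x axis) and of the old livers (y axis) for the 9 heat shock genes (red, named), the 14 HSP90 co-chaperone genes tested (green) and the other mRNAs with a mean of at least 1 CPM (grey; some lie beyond the axes). Most heat shock genes lie near 0 on the x axis and far from 0 on the y axis, and 11 of the 14 co-chaperone genes lie at the upper right.

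Ratios between partner genes within a library do not depend on how the library was scaled. The ratio of *HSP90AA1* to *HSP90AB1*, the inducible over the constitutive form, was 2.68 and 3.003 in young livers and 4.05 and 1.56 in old livers. *HSPE1* to *HSPD1*, lid over chamber, was steadier, at 6.27 and 7.24 in young livers and 5.52 and 6.74 in old livers. *HSPH1* to *HSPA8*, exchange factor over HSP70, was 0.0148 and 0.0159 in young livers and 0.0179 and 0.0124 in old livers. *DNAJB1* to *HSPA8*, J-domain partner over HSP70, was 0.112 and 0.124 in young livers and 0.0996 and 0.413 in old livers, where only old replicate 2 stood out. The age groups overlapped for all 4 ratios, and exact two-sided permutation tests gave p = 0.667 for *HSPE1* to *HSPD1* and p = 1 for the others, with an adjusted p of 1 for each of the 4. A design of 2 against 2 has 6 arrangements, so its smallest two-sided p is 1 in 3 and no such ratio could pass.

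The wider chaperone network was read from 8 lists of 99 genes, of which 67 had a row and 64 were tested. limma called 0 of the 64, with 4 higher and 5 lower at an unadjusted p under 0.05, and edgeR's exact test called 1, *HSPA1L*. Both old livers were above both young livers for 12 genes (18.8%) and below for 22 (34.4%). Those shares were 24.4% and 25% over the 16898 mRNAs tested. They were 17.8% and 32.9%, close to the lists, over the 9790 with a mean of at least 1 CPM, which 52 of the 64 genes reached. The balance rested on the scaling: with TMM scaling 17 of the 64 were above and 12 below. With it the shares were 29.0% and 19.1% of the mRNAs tested, and 23.4% and 24.7% of those with a mean of at least 1 CPM. The counts of the single lists that follow are small and are descriptions to be read against those shares.

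*HSPA1L* is a member of the cytosolic HSP70 family that lies beside the stress-inducible HSP70 genes. It was at 12.8 and 6.26 CPM in young livers and 65.0 and 76.1 CPM in old livers, so both old livers were far above both young livers and near each other. The ratio of age means was 7.40 and the log2 fold change was 2.83 ± 0.39 (SE). Its adjusted p was 0.213 in limma, 0.000273 in edgeR's exact test and 1.8e-07 in DESeq2, and with 1 library left out its log2 fold change stayed between 2.37 and 3.296. The neighbouring inducible gene, listed by RefSeq as *HSP70.2* with *HSPA1A* and *HSPA1B* among its synonyms, was not analysed here. It is related to *HSPA1L* in sequence, and whether the value holds reads of both was not tested. Old livers were thus higher for this identifier while *HSPA8*, the constitutive HSP70, overlapped between ages.

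Of the other cytosolic HSP70 and HSP110 genes, *HSPA14*, which works at the ribosome, was the named gene below, at 4.48 and 2.77 CPM in young and 2.24 and 2.07 CPM in old livers, and the 5 genes tested had a median log2 fold change of 0.14. The 16 J-domain co-chaperones had 3 genes with both old livers above and 7 with both below, and 3 and 4 with TMM scaling. *DNAJB2* and *DNAJB12*, of which the latter sits in the endoplasmic reticulum membrane, had log2 fold changes of 0.55 and 0.52, and *DNAJC2*, a ribosome-bound partner of HSPA14, and *DNAJB4* had -0.76 and -0.67. *DNAJC2* was among those that no longer had both old livers below with TMM scaling, and none of these 4 had an adjusted p under 0.3 in limma.

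The 14 HSP90 co-chaperones had 1 gene with both old livers above, 2 with both below and 8 interleaved, and 1, 1 and 8 with TMM scaling. *CDC37*, which brings kinases to HSP90, was at 8.17 and 5.43 CPM in young livers and 11.0 and 13.4 CPM in old livers, with a log2 fold change of 0.78 ± 0.25 (SE) and an adjusted p of 0.310 in limma. *PPID*, an immunophilin, and *TTC4* had -0.52 and -0.27, and *TTC4* overlapped between ages with TMM scaling. Replicate 1 was above replicate 2 in both ages for 11 of the 14, against 30.4% of the 9790 mRNAs with a mean of at least 1 CPM and 4 of the 9 heat shock genes. This was noticed in the values and has no test. *STIP1*, which couples HSP70 to HSP90, shows it with 23.4 and 12.7 CPM in young and 22.1 and 12.7 CPM in old livers, and *AHSA1*, which speeds up the HSP90 ATPase, with 21.4 and 13.5 CPM in young and 21.5 and 13.5 CPM in old livers. Both were named after their values were seen, and the log2 fold change of *STIP1* turned from -0.04 to 0.14 with TMM scaling.

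The 2 small heat shock proteins tested, of 9 listed, both had old livers above young ones. *HSPB6* did so by little, at 0.348 and 0.358 CPM in young livers and 0.439 and 0.376 CPM in old livers, a log2 fold change of 0.06 ± 0.11 (SE). *HSPB8*, the partner of BAG3 in aggregate clearance, was at 8.81 and 12.6 CPM in young livers and 15.0 and 18.3 CPM in old livers, with a log2 fold change of 0.61 and an adjusted p of 0.367 in limma. Among 5 BAG proteins and HSP70 cofactors, *BAG1*, a nucleotide exchange factor, was at 7.97 and 8.08 CPM in young and 10.08 and 8.40 CPM in old livers. *ST13*, which steadies the client-bound HSP70, was at 79.2 and 90.8 CPM in young and 54.4 and 59.5 CPM in old livers, a log2 fold change of -0.57 ± 0.14 (SE) with an adjusted p of 0.259 in limma. *STUB1*, the ubiquitin ligase that marks clients of HSP70 and HSP90 for degradation, had -0.38 and overlapped between ages with TMM scaling.

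The 9 mitochondrial chaperones and proteases tested had 4 genes with both old livers below and 1 above, which turned to 2 below and 3 above with TMM scaling. Their median log2 fold change was -0.20 (-0.02 with TMM scaling), and *LONP1* was listed at 0 in all libraries. *CLPX*, the unfolding subunit of the matrix protease ClpXP, was at 21.7 and 25.5 CPM in young livers and 11.3 and 9.41 CPM in old livers, a log2 fold change of -1.11 ± 0.17 (SE) with an adjusted p of 0.213 in limma. *DNAJC19*, a J-domain protein of the inner membrane import motor, was at 50.2 and 37.9 CPM in young and 10.6 and 21.8 CPM in old livers, a log2 fold change of -1.46 ± 0.43 (SE) with an adjusted p of 0.287 in limma. *HSPA9*, the mitochondrial HSP70 that pulls proteins in before the chaperonin folds them, was at 30.0 and 25.0 CPM in young and 24.7 and 17.9 CPM in old livers. It overlapped between ages with TMM scaling and was named after its values were seen. *SPG7*, a subunit of an inner membrane protease, ran the other way with 2.33 and 2.92 CPM in young and 5.72 and 4.48 CPM in old livers.

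The TRiC chaperonin, which folds actin and tubulin in the cytosol, and its partner prefoldin had 5 of 10 genes with both old livers below and 1 above, which turned to 2 below and 3 above with TMM scaling. Their median log2 fold change was -0.22 (-0.05 with TMM scaling). The subunit genes *CCT4* and *CCT2* had -0.81 ± 0.18 and -0.55 ± 0.13 (SE), and *CCT5* had 0.38 ± 0.25 (SE), with adjusted p-values of 0.247, 0.259 and 0.559 in limma. Of the 3 other heat shock factors and their binding proteins tested, 1 had both old livers below both young ones, none had both above, and *HSBP1L1* was listed at 0 in all libraries.

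**Figure D5:**
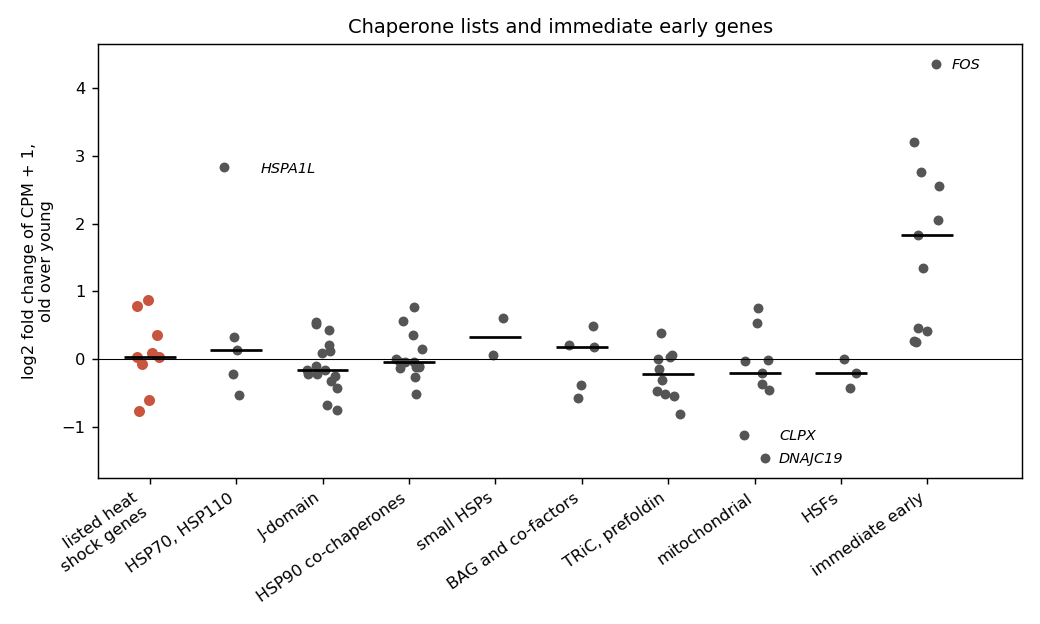
Log2 fold change of CPM + 1, old over young livers, for the 9 heat shock genes (red) and for the genes tested of 8 chaperone lists and of the immediate early genes (grey), with a black line at the median of each. *HSPA1L* at 2.83 lies far above the rest of the chaperone genes, and the immediate early genes have a median of 1.84.

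By distance between profiles over the 4 libraries, each centred on its mean, the mRNAs nearest to the median profile of the 9 heat shock genes were *RCSD1* at 0.201, *TIMM8B* at 0.202, *PARG* at 0.205, *STYX* at 0.206 and *EIF2A* at 0.210 on the log2(CPM + 1) scale, of 6093 mRNAs with a symbol and a mean of at least 1 CPM. The median profile itself was nearly flat, at 0.04 and -0.10 in young livers against -0.04 and -0.30 in the old livers. Distances to single members were not measured.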

How the data were processed

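RNA-seq of 4 livers was grouped by the age in the labels, without a batch. The authors mapped clean reads against Sscrofa10.2 (TopHat2 2.0.14), assembled them (StringTie 1.2.3) and deposited values, here taken as CPM, which they call TPM and credit to Salmon 0.6.0 (versions from the submitters' processing notes). As deposited, nearly all values of a library were whole multiples of 1 step shared by its genes, so no gene length enters them. Whole reads were recovered by dividing by that step, within a tolerance of 0.00051 CPM, for at least 99.994% of mRNA values and 100% of lncRNA values, and edgeR's exact test on those reads called 534 mRNAs. lncRNA values served for depth alone. miRNA and circRNA values were not used here.

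Members were matched through RefSeq and Ensembl symbols, which 11654 of 21607 identifiers have. The members and lists were chosen with earlier results of these data known. limma 3.58.1 (R 4.3.3) was run on log2(CPM + 1) over mRNAs above 0 in at least 2 libraries, two-sided, with Benjamini-Hochberg adjustment. A call needed an adjusted p-value under 0.05 and an absolute log2 fold change above 1. Alternatives were a pseudocount of 0.1, no filter, a mean of at least 1 CPM, TMM and median-ratio scaling, a variance trend, a replicate block, edgeR 4.0.16 (exact and quasi-likelihood), DESeq2 1.42.0 and leaving out each library. Scripts used Python 3.11.15, scipy 1.17.1, numpy 2.4.6, matplotlib 3.10.9 and pandas 2.3.3, and the tests were tried on simulated data. Poisson intervals cover counting error only.

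Named genes were the members, the 2 genes of each list with the largest log2 fold change in each direction among those with a mean of at least 1 CPM and no overlap between ages, and the 5 mRNAs nearest to the members' median profile. *HSPB6* and the immediate early genes were named beside a result, after their values were seen. The values are on Sscrofa10.2, and the RefSeq table, on Sscrofa11.1, was used only for names and neighbours.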

Additional observations from a re-analysis of the deposited data

How the results depend on the processing

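The age difference kept its direction for *DNAJB1*, *BAG3*, *HSPD1* and *HSPE1* under every alternative run, and no alternative called any of the 9 genes. Leaving out a library could not turn it for these genes, since their age groups did not overlap. Its size moved for the low genes. Its size moved for the low genes. The log2 fold change of *BAG3*, 0.88 as reported, was 1.24 with a pseudocount of 0.1, 1.63 in DESeq2 and 1.66 in both edgeR tests. For *HSF1*, at 0.35 as reported, these were 0.66, 0.70 and 0.73. The log2 fold change of *HSP90AA1*, -0.07 as reported, turned to 0.12 with TMM scaling, 0.10 with median-ratio scaling, 0.18 in DESeq2 and 0.21 in both edgeR tests. The scalings set the libraries to different levels. With each library left out in turn, it ran from -0.55 to 0.41, that of *HSPA8* from -0.47 to 0.55, of *HSPH1* from -0.51 to 0.59, of *HSP90AB1* from -0.10 to 0.29, of *HSF1* from -0.054 to 0.76, and the median of the 9 genes from -0.47 to 0.29. That median was 0.32 in edgeR's exact test and 0.32 in its quasi-likelihood test (0.23 with TMM scaling in limma and 0.04 with a pseudocount of 0.1). Leaving out 1 library moved the age difference in log2 ratio from -0.86 to 0.51 for *HSP90AA1* to *HSP90AB1*, from -0.29 to 4.2e-05 for *HSPE1* to *HSPD1*, from -0.31 to 0.22 for *HSPH1* to *HSPA8* (0.00022 with 1 added to both values) and from -0.24 to 1.81 for *DNAJB1* to *HSPA8*. Over all mRNAs, those called higher and lower were 0 and 0 as reported, 683 and 197 in DESeq2, 457 and 77 in edgeR's exact test, and 1 and 1 with a mean of at least 1 CPM, which leaves fewer mRNAs to adjust over. The causes of the other changes were not tested.

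The labels share replicate numbers across ages, but the differences between replicates 1 and 2 correlated at 0.10 between young and old over 9798 mRNAs, and with 2 pairs this does not make them pairs. With the replicate block, log2 fold changes were as reported (-0.76 for *HSPE1*), with 0 mRNAs called higher and 0 lower.

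With 2 sows per age, an adjusted p that misses the threshold does not show that a gene was equal between ages. *HSF1*, *BAG3* and *HSPH1*, at 48 to 294 reads per library, are the members that depth limits most.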
